A study of Mus musculus with 18 samples.

Results

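The genes described here encode the proteasome of mouse regulatory T (Treg) cells, with its regulatory particles and assembly chaperones. They were the protein-coding genes whose symbol begins with Psma to Psmg followed by a digit and whose mean over all 18 libraries was at least 1 TPM, a share of a library's RNA corrected for transcript length. Of 50 such protein-coding genes among the 55487 gene identifiers measured, 48 passed and 2 did not. The members were selected on their mean TPM over all libraries, so their presence is not a finding. The rule itself uses no difference between sources. The contrast of Psmb8, Psmb9 and Psmb10 with Psmb5, Psmb6 and Psmb7 was named when the set was chosen, and their ratio is therefore given as a description with no test.

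RNA with a poly(A) tail was sequenced from wild-type, untreated CD4+Foxp3+ Treg cells sorted fresh from spleen, lymph node, liver, bone marrow, peripheral blood and lung, with 3 libraries from each source. The series sets peripheral blood Treg cells beside those of the organs. Gates, age, sex and the number of animals are not given in the sources used here. The labels do not say that replicates came from separate animals, so p-values measure only the spread between these libraries.

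The proteasome degrades proteins tagged with ubiquitin. Its 20S core is a barrel of outer rings of alpha subunits and inner rings of beta subunits, of which Psmb5, Psmb6 and Psmb7 carry the active sites. Lymphoid cells, and other cells exposed to interferon gamma, build the immunoproteasome, in which Psmb8 takes the place of Psmb5, Psmb9 that of Psmb6 and Psmb10 that of Psmb7. The 19S particle unfolds and feeds in tagged substrates, while the PA28 cap made of Psme1 and Psme2 is another interferon-inducible activator. Peptides cut by the core are carried by the Tap1-Tap2 transporter to MHC class I molecules. Irf1 and Nlrc5 are known activators of the inducible genes, and Nfe2l1 of the constitutive ones.

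Proximal promoter sequences of the genes that exchange in the core were read from RefSeq (build GRCm38.p6) to show the letters upstream of 2 of the 3 exchanging pairs. Each is the 250 bases upstream of the annotated start, written 5′ to 3′ on the gene's strand. RefSeq starts differ from the ends of the GENCODE gene spans given with the levels, so that the Psmb8 and Psmb9 windows lie inside those spans. Capitals mark a match to a motif spelled out after the sequences.
Psmb8, chr17:34197945-34198194, plus strand: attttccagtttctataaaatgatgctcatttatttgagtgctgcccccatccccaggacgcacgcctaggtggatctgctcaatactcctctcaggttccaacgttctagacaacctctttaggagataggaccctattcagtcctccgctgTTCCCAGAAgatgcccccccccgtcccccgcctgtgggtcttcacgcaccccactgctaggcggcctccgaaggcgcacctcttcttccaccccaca
Psmb5, chr14:54617996-54618245, minus strand: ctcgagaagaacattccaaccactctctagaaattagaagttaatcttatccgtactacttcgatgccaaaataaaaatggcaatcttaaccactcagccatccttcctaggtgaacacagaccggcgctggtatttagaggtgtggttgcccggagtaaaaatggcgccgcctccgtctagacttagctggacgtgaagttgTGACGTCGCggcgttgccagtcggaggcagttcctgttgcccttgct
Psmb9, chr17:34187331-34187580, minus strand: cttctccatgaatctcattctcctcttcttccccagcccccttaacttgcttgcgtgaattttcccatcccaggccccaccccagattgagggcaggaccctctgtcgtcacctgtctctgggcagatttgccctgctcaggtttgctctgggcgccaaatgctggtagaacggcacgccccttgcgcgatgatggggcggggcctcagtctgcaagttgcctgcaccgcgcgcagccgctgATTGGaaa
Psmb6, chr11:70525107-70525356, plus strand: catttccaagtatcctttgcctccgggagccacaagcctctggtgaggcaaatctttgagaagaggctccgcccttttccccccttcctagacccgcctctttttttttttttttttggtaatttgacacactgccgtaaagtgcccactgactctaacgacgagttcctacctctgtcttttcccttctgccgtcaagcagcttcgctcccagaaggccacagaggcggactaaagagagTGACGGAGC
Psme1 site just after the start, chr14:55578495-55578520, plus strand: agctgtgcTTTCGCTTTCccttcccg

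Both strands of the window from 250 bases before to 50 bases after the start were searched. The Psmb8 capitals are a GAS motif (TTCNNNGAA, named for gamma-activated sites), which lay in 8.3% of all 32851 windows and in those of 3 of the 41 members that had a window. The Psme1 capitals are the reverse complement of an ISRE core (GAAA, any pair of bases and GAAA again, read by interferon regulatory factors), found in 3.44% of all windows and in 5 members. In Psmb5 and Psmb6 they mark an antioxidant response element core (TGACNNNGC), found in 12.4% of all windows and in 6 members. The Psmb9 capitals are a CCAAT box on the opposite strand, a motif of 37.4% of all windows and of 14 members. Psmb9 and Tap1 are read in opposite directions from RefSeq starts 226 bp apart, so their upstream windows overlap, and their GENCODE spans overlap by 212 bp. The Psmb10 window and the Psme2 windows held none of these letters, and Psmb7 is not shown. A match describes letters in a window, not a factor bound there, and no difference between inducible and constitutive partners was shown by these shares.

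All 7 Treg markers, Foxp3 among them, reached at least 1 TPM in every source. So did all 7 B cell markers, and that bar therefore does not identify the cells. The Treg markers summed to 896.9 to 915.4 TPM in blood, 2312.3 to 2350.5 in lymph node and 3172.8 to 3262.6 in lung. All 7 Treg markers were lower in blood than in spleen and in lymph node. The libraries also held RNA of other cells. The 14 myeloid markers summed to between 45359.5 and 45653.1 TPM in bone marrow and between 26312.6 and 27149.9 in blood. In lung they summed to 1667.5 to 1735.8, in spleen to 669.4 to 835.5, in liver to 182.4 to 388.5 and in lymph node to 38.1 to 84.1. In bulk RNA, fewer cells of a type and less RNA per cell cannot be told apart, and the part of other cells in the results was not tested. TPM keeps no read number, so the depth behind each value is unknown. The spread between replicates, as the median coefficient of variation of the members, ran from 3.94% in lymph node and 4.93% in bone marrow through 6.23% in blood and 7.61% in spleen to 12.83% in lung and 17.43% in liver.

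Across the 6 sources most proteasome genes varied over a narrow range. By limma's F test on log2(TPM + 1), with Benjamini-Hochberg adjustment over all 16694 genes tested, 41 of 48 members differed between sources, where 68% of all genes tested did. The range of the 6 group means had a median of 0.72 on the log2 scale over members, against 1.15 over all genes tested. The 5 interferon-inducible genes Psmb8, Psmb9, Psmb10, Psme1 and Psme2 had ranges from 1.06 (Psme1) to 2.05. Their median was 1.46, whereas the median of the other 43 members was 0.69. Some of those 43 were as wide, among them Psmc3ip (1.88), Psme2b (1.86), Psmg1 (1.77), Psmg3 (1.43) and Psmg4 (1.43). The members that did not pass were Psma1, Psma6, Psma7, Psmc6, Psmd5, Psmd11 and Psmg3, with adjusted p-values from 0.0578 to 0.136.

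Summed over all members, the proteasome took 0.697%, 0.698% and 0.7% of the TPM in the 3 spleen libraries and 0.621%, 0.628% and 0.614% in lymph node. Bone marrow gave 0.56%, 0.553% and 0.557%, and liver 0.506%, 0.529% and 0.507%. Lung gave 0.458%, 0.46% and 0.461%, and blood 0.448%, 0.459% and 0.452%. Spleen, lymph node, bone marrow and liver therefore ranked in that order without overlap, and only blood and lung overlapped. The separate roles did not keep this order of the total, and liver and lung, for example, changed places between roles. Immunoproteasome genes summed to a mean of 478.0 TPM in lung and 862.2 in liver, and non-ATPase 19S genes to 804.1 and 853.3. Beta genes without an active site instead summed to 594.3 in lung and 486.7 in liver, and 19S ATPase genes to 638.5 and 558.0. By group mean, 23 members were highest in spleen, 10 in lymph node, 9 in bone marrow, 3 in liver and 3 in lung, and none in blood. Blood held the lowest mean for 20 members, liver for 13, lung for 12, spleen for 2 and bone marrow for 1. These are ranks of means, and neighbouring sources often did not differ by limma, as for Psmb5 in spleen and lymph node (adjusted p = 0.674). How all genes tested ranked was not computed. The levels in TPM are shares of library RNA and move with the other RNA in a library, as the scaling results given with the blood comparisons show.

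**Figure D1:**
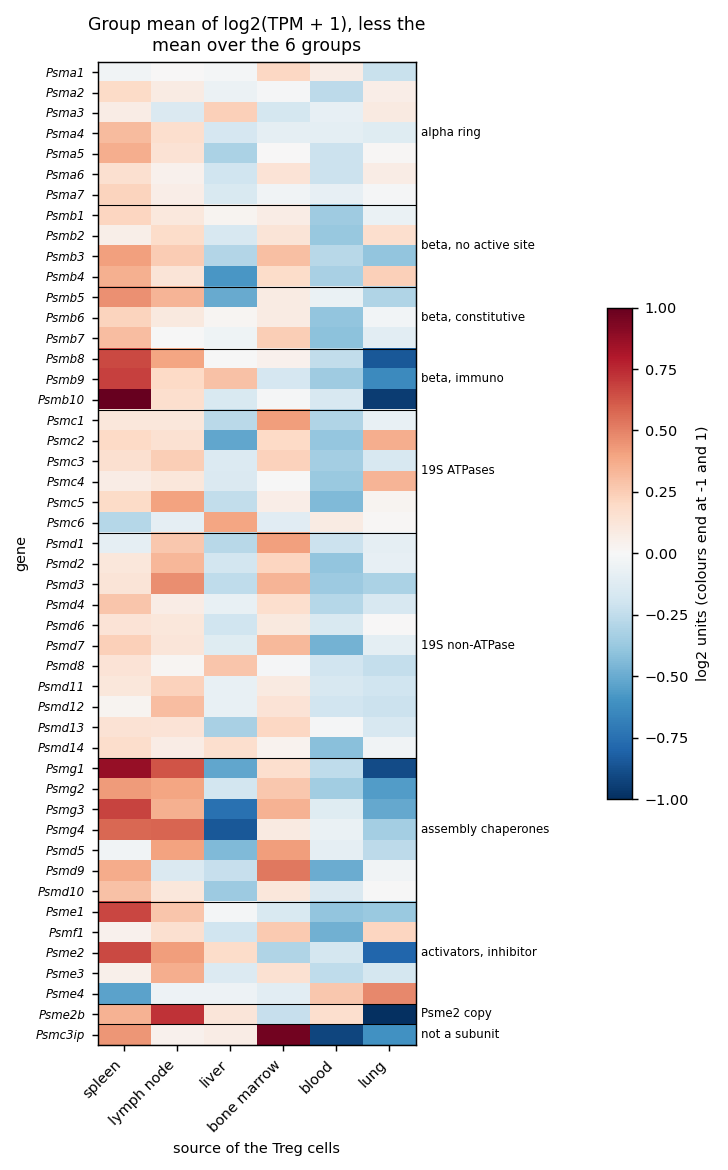
Group mean log2(TPM + 1) of each of the 48 members less its mean over the 6 sources, with members in rows by role and colours that end at -1 and 1. The inducible genes Psmb8, Psmb9, Psmb10 and Psme2 run from highest in spleen to lowest in lung. Psme1 is also highest in spleen and low in lung, but its lowest mean is in blood.

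Psmb8, the immunoproteasome subunit with chymotrypsin-like activity (ENSMUSG00000024338, chr17:34197721-34201454 in mm10, in the MHC region), had the highest TPM, a level per transcript length, of the catalytic subunits in every library. It measured 776, 749 and 824 TPM in spleen, and 647, 664 and 649 in lymph node. Bone marrow gave 512, 509 and 514, liver 458, 504 and 525, and blood 398, 435 and 421. Lung gave 276, 264 and 284. Only liver and bone marrow overlapped, and each other step down that order passed limma's test (adjusted p from 1.15e-07 to 0.00302). The mean in spleen was 2.85 times that in lung.

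Psmb9, which replaces the caspase-like subunit Psmb6, lies beside Tap1 in the MHC region (chr17:34181987-34187764). Its levels were 254, 232 and 259 TPM in spleen, 191, 194 and 183 in liver, and 170.1, 187 and 175 in lymph node. They were 140.2, 139.7 and 132 in bone marrow, 122, 128 and 112 in blood, and 86.4, 121 and 92.4 in lung. Spleen was above every other source, and lung replicate 2 reached into the blood range. Liver and lymph node were not separated (limma, adjusted p = 0.518), nor were bone marrow and blood (adjusted p = 0.166).

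Psmb10 replaces the trypsin-like Psmb7 and is encoded outside the MHC region (chr8:105935735-105938444). Spleen libraries held 409, 453 and 411 TPM, against 226, 229.6 and 207 in lymph node. Bone marrow held 198, 185 and 201, liver 165, 195 and 171, and blood 182, 164 and 183, with liver overlapping both. Lung was lowest, at 131, 81.7 and 97.1. Psmb10 thus had high spleen and low lung values around a middle group of 4 sources. No neighbours in that group differed by limma (adjusted p from 0.375 to 0.994), but blood, at its low end, was called lower than lymph node as deposited. The 4.11-fold span of Psmb10 between the spleen and lung means was the widest of the catalytic subunits.

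Spleen and lung sat on opposite sides of lymph node for these genes. In spleen, 4 of 48 members were higher than in lymph node and 1 was lower, where 4.44% of all genes tested were higher and 9.87% lower. The 4 were Psmb10 by 0.94 ± 0.12 (log2 difference ± SE, limma adjusted p = 8.86e-05), Psmb9 by 0.48 ± 0.10 (adjusted p = 0.0031), Psme1 by 0.39 ± 0.09 (adjusted p = 0.00571) and Psmb8 by 0.26 ± 0.05 (adjusted p = 0.00302). All 4 were inducible genes, and they passed under each of the 3 other scalings of the libraries as well. Under those scalings 12, 12 and 7 members were higher, where 6.34%, 6.55% and 4.26% of all genes were. Fitted on these 2 sources alone, 8 members were higher and 5 lower, and with library weights 9 and 6. Shares of all genes were not computed for these fits, so these counts are not read as particular to the members. The Psmb8 call was lost, at an adjusted p of 0.0508, without the trend and robust settings of limma's variance model. The gene that was lower, named after its values were seen, was Psmd1, a scaffold subunit of the 19S base (log2 difference -0.36). That call was lost under each of those scalings and without spleen replicate 3 or any lymph node library. It was also lost in the fit on these 2 sources alone (limma adjusted p = 0.0542). B cell markers, 7 genes, summed to 509.0 to 586.2 TPM in spleen and to 152.4 to 163.8 in lymph node. The 7 erythroid markers summed to 1844.2 to 1986.5 and to 72.8 to 75.5, and all genes of both lists were higher in spleen. Their part in the spleen values was not tested.

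In lung, 22 of 48 members were lower than in lymph node and 2 higher, where 27.4% of all genes tested were lower and 14.9% higher. With scaling to equal levels of 20 T cell genes, 6 were lower and 19 higher (11.5% and 26.4% of all genes), and with scaling by the median ratio 12 were lower and 6 higher (17.7% and 20.4%). All 5 inducible genes were among those that were lower as deposited. Psmb8 fell by 1.25 ± 0.05 on the log2 scale (limma adjusted p = 2.56e-11), Psmb10 by 1.12 ± 0.12 (adjusted p = 2.42e-06) and Psmb9 by 0.84 ± 0.10 (adjusted p = 3.8e-06). With scaling to T cell genes, which shifted the median of all genes by 0.46 in this comparison, the differences were -0.74 for Psmb8, -0.61 for Psmb10 and -0.33 for Psmb9, and all 3 still passed. The lung libraries also held lung epithelial RNA: the 6 markers of that list summed to 224.7 to 300.3 TPM in lung, most of it Scgb1a1, and to at most 31.4 in any other library. Of the 6, 3 were higher in lung than in lymph node and 1 was lower. Surfactant gene Sftpc had a mean of 20.13 TPM in lung and was listed at 0 in every lymph node, liver, blood and bone marrow library, whereas Ager had its lowest mean in lung, at 2.24 TPM against 14.87 in lymph node. Myeloid markers, given above, were higher in lung for 12 of 14 genes. The part of these RNAs in the lung values was not tested.

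**Figure D2:**
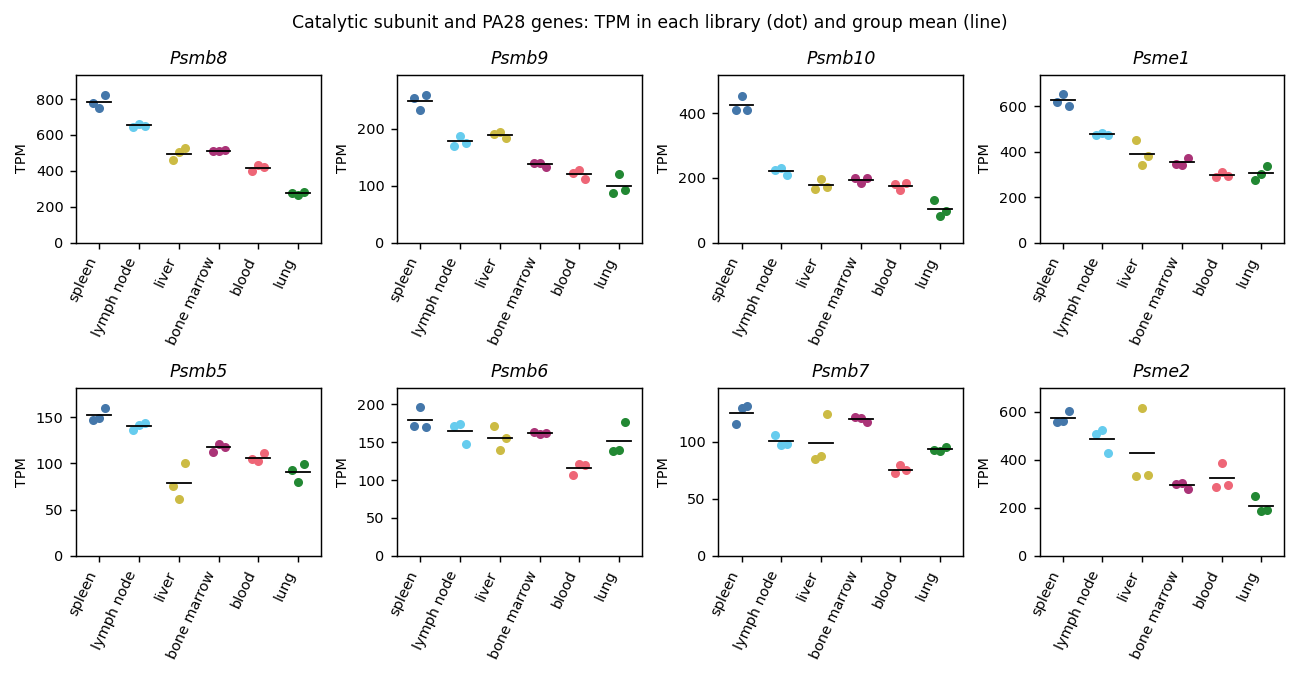
TPM of the 3 immunoproteasome subunits, their 3 constitutive partners and the PA28 genes Psme1 and Psme2 in each library (dots), with the group mean as a line and each axis from 0. The group means of Psmb8, Psmb9 and Psmb10 are highest in spleen and lowest in lung.

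The partners Psmb5, Psmb6 and Psmb7 followed another order. Psmb5, the constitutive chymotrypsin-like subunit (chr14:54614119-54618022), measured 147, 149.5 and 160.2 TPM in spleen, 136, 142 and 144 in lymph node and 113, 121 and 118 in bone marrow. Blood gave 105, 102 and 111, lung 92.6, 79.3 and 99.4, and liver 75.7, 61.5 and 101. Liver was low for this gene, while its Psmb8 level was not separated from that of bone marrow (limma adjusted p = 0.528). Psmb5 was 0.85 lower in liver than in lymph node on the log2 scale (log2 difference -0.85, limma adjusted p = 0.00013) and fell by 0.64 ± 0.13 in lung (adjusted p = 0.000836), a call that was lost with scaling to T cell genes (difference -0.13).

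Psmb6, the caspase-like subunit (chr11:70525367-70527858), varied less. Its levels were 171, 197 and 170.2 TPM in spleen, 171, 174 and 148 in lymph node and 163, 160.5 and 163 in bone marrow. Liver gave 172, 140.04 and 155, lung 139, 139 and 176, and blood 107, 121 and 120.4. Blood alone stood below every other library, and its step to lung was the single neighbouring step to pass limma's test (adjusted p = 0.00753). Psmb7, the trypsin-like subunit (chr2:38588036-38644087), was likewise lowest in blood, at 72.3, 79.8 and 74.9 TPM, against 84.8 to 131 in the other 15 libraries. With scaling to T cell genes both were instead higher in blood than in lymph node (by 0.60 and 0.68) and higher in lung than in lymph node (by 0.38 and 0.40).

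Within-library ratios do not depend on how a library is scaled. The immunoproteasome share, which is the summed TPM of Psmb8, Psmb9 and Psmb10 as a percentage of all 6 catalytic genes, was 76.8%, 75.1% and 76.4% in spleen. It was 71.6%, 72.3% and 72.5% in lymph node, 71.0%, 75.5% and 69.8% in liver and 71.2%, 70.5% and 70.0% in blood. Bone marrow gave 68.2%, 67.4% and 68.0%, and lung 60.3%, 60.0% and 56.1%. The immunoproteasome genes were the larger part in all 18 libraries, and lung lay below every other library. Of the 15 pairs of sources, 12 did not overlap, the exceptions being liver with spleen, lymph node and blood.

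On the log2 scale the summed ratio was 1.67 ± 0.07 in spleen (mean ± SD, n = 3), 1.38 ± 0.22 in liver, 1.37 ± 0.04 in lymph node, 1.26 ± 0.04 in blood, 1.08 ± 0.03 in bone marrow and 0.51 ± 0.14 in lung. The pairs differed in level and in order. Psmb8 made up 75.3% of Psmb8 plus Psmb5 in lung and 86.3% in liver, where Psmb5 was low. Psmb10 made up 52.0% of its pair in lung and 77.2% in spleen. Psmb9 was close to its partner Psmb6: its share was 58.1% in spleen, 54.9% in liver, 52.0% in lymph node, 50.9% in blood, 45.9% in bone marrow and 39.7% in lung. The Psmb9 transcript was therefore the less abundant of its pair in all bone marrow and lung libraries and the more abundant in all spleen and liver libraries.

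**Figure D3:**
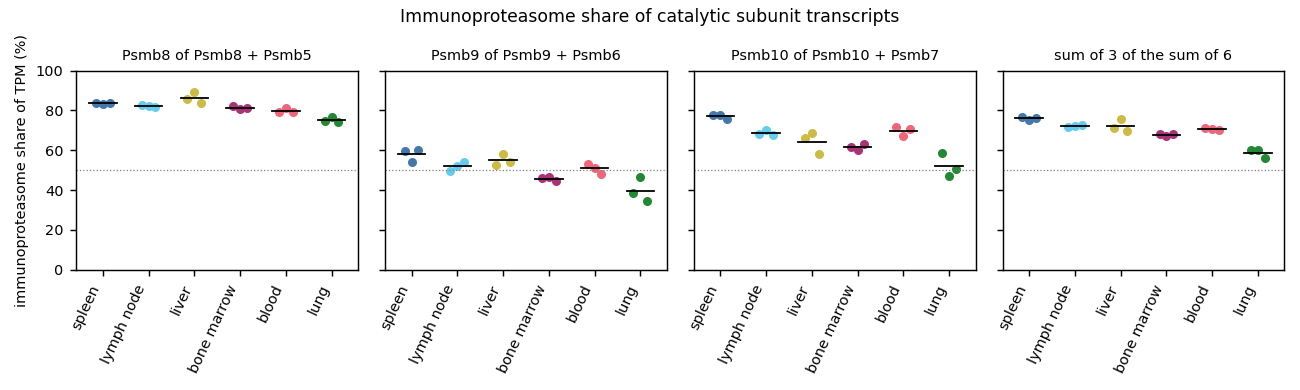
Percentage of the immunoproteasome gene in each catalytic pair, and of the 3 immunoproteasome genes in the sum of all 6, in each library (dots) with the group mean (line) and 50% dotted. The summed share lies between 75.1% and 76.8% in spleen and between 56.1% and 60.3% in lung, and the Psmb9 share crosses 50% between sources.

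Measured against the rest of the same core, the high spleen and low lung positions of Psmb8 and Psmb10 were still seen, but some steps between sources shrank. Relative to the mean log2 TPM of the 11 core genes without an active site, Psmb8 stood at 2.4 in spleen, 2.25 in lymph node, 2.1 in liver, 1.93 in bone marrow, 1.91 in blood and 1.12 in lung. Bone marrow and blood, which differed in Psmb8 TPM, were thus nearly level. Psmb9 stood at 0.74 in spleen and 0.72 in liver, at 0.37 in lymph node, 0.11 in blood and 0.03 in bone marrow, and at -0.36 in lung. Psmb10 stood at 1.51 in spleen, between 0.54 and 0.69 in the 4 middle sources and at -0.32 in lung. The constitutive Psmb6 stayed between 0.06 in blood and 0.43 in liver, and Psmb7 between -0.56 in blood and -0.16 in bone marrow. Psmb5 was at 0.04 in both spleen and lymph node and at -0.57 in liver.

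PA28 is a ring of Psme1 (alpha) and Psme2 (beta) subunits whose genes lie together on chromosome 14 (chr14:55578123-55581529 and chr14:55587441-55591113). Psme1 measured 619.9, 653 and 602 TPM in spleen, 471, 484 and 473 in lymph node and 451, 342 and 381 in liver. Bone marrow gave 343, 343 and 373, lung 274, 303 and 336, and blood 289.5, 312 and 294. Spleen lay above all and lymph node next, while liver overlapped bone marrow and lung overlapped blood. Psme1 was lower in lung than in lymph node (log2 difference -0.65 ± 0.09, limma adjusted p = 1.55e-05), but not past the threshold with scaling to T cell genes (difference -0.14, adjusted p = 0.302).

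Psme2 measured 556, 560.4 and 602 TPM in spleen, 507, 524 and 427 in lymph node and 332, 615 and 338 in liver. Blood gave 289, 388 and 294, bone marrow 297, 305 and 279.5, and lung 249, 187 and 192. Liver replicate 2 stood far above the other liver libraries, and lung lay below every other source. In lung Psme2 fell by 1.22 ± 0.19 against lymph node (limma adjusted p = 8.43e-05).

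Psme2b is a near-identical copy of Psme2 on chromosome 11, and 68.7% of the 50-base words of its transcript occur in Psme2 as well. How the authors' tool divided reads between the copies is not known, so their separate values are uncertain. Their summed TPM depends less on that division, though not wholly, since the transcripts differ in length (962 and 837 bases). It was 666.0 ± 11.6 TPM in spleen, 605.9 ± 46.9 in lymph node, 508.8 ± 141.7 in liver, 404.4 ± 59.0 in blood, 355.4 ± 12.4 in bone marrow and 244.3 ± 32.7 in lung (mean ± SD, n = 3). The summed copies kept the high spleen and low lung position of the other inducible genes.

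The other caps are not interferon-inducible and did not share this order. Psme4, the PA200 activator of nuclear proteasomes, measured 16.5, 16.6 and 18.1 TPM in spleen and 24.6, 24.2 and 23.97 in lymph node. Liver gave 19.1, 26.1 and 28.6, bone marrow 23.3, 24.9 and 21.8, blood 35.0, 26.9 and 30.5, and lung 46.8, 36.5 and 26.2. Spleen was the lowest source and did not overlap any other, which is the reverse of the PA28 genes. Psme4 was higher in lung than in lymph node by 0.53 (limma adjusted p = 0.0256), but leaving out any lymph node library, lung replicate 1 or lung replicate 2 ended that call (0.34 to 0.54, adjusted p from 0.0566 to 0.131). So did a fit on the 2 sources alone (limma adjusted p = 0.0956).

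Psme3, the nuclear PA28 gamma cap, had its 3 highest values in lymph node, at 99.4, 97.5 and 96.9 TPM, and ranged from 57.5 to 90.5 elsewhere. Psmf1, an inhibitor of the core, was low in blood, at 16.7 to 19.3 TPM, against 26.0 to 36.6 in all other libraries but liver replicate 3, at 16.3. Both passed the F test over sources.

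The alpha ring, which gates the entry to the core, varied least of the roles. Of its 7 genes 4 passed the F test, where 68% of all genes tested did, and the median range was 0.42. Psma5 had the widest range, at 89.4, 97.1 and 105 TPM in spleen and 71.5, 56.2 and 53.9 in liver. Psma4 ran from 162, 153 and 138 TPM in spleen to 129, 96.5 and 99.0 in liver. Psma7 had the narrowest range, with 248, 242 and 213 TPM in spleen and 172, 209 and 218 in lung, which overlap. Psma3, named after its values were seen, was the single member higher in liver than in lymph node, at 253, 239 and 241 against 180.4, 192 and 189 TPM (log2 difference 0.38, limma adjusted p = 0.00245). It was also the other member higher in lung, by 0.23, a call that was lost without lung replicate 1 (0.13, adjusted p = 0.183) or without any lymph node library (0.21 to 0.25, adjusted p from 0.0561 to 0.113). That call was lost as well with no filter, with library weights and without the trend and robust settings (limma adjusted p from 0.0561 to 0.0892). In a fit on the 2 sources alone it did not pass either (limma adjusted p = 0.115). A transcribed copy, Gm13835, shares 22.0% of the 50-base words of Psma3.

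All 4 beta subunits without an active site passed the F test (median range 0.69), where 68% of all genes tested did. Psmb4 and Psmb3 had the widest ranges. Psmb4 held 153, 106 and 171 TPM in liver and 163, 174 and 171 in blood, and 225 to 287 in the other 12 libraries, so the sources fell into a low pair and a high group of 4. Psmb3 was high in spleen, bone marrow and lymph node, at 212 to 249 TPM, and low in liver, blood and lung, at 114 to 161. Psmb2, with the narrowest range of the 4, ran from 61.9 to 65.1 TPM in blood to 98.8, 86.2 and 97.7 in lymph node. Other annotated genes share 57.1% of the 50-base words of Psmb5, 55.8% of Psmb3 and 54.5% of Psma5, and the closest of these copies reached at most 1.87 TPM in any library. How reads were divided there is not known either.

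The 19S particle consists of the ATPase ring, which unfolds substrates, and the non-ATPase subunits, which bind and strip ubiquitin. Of the 6 ATPases 5 passed the F test (median range 0.71), and of the 11 non-ATPase subunits 10 did (0.56). Of all genes tested 68% passed. Psmc2 measured 101, 74.0 and 91.4 TPM in lung, 61.5, 42.5 and 40.2 in liver and 51.1, 50.2 and 54.1 in blood. Lung lay above blood without overlap for this ATPase (blood minus lung -0.75, limma adjusted p = 0.00035), although the call was lost with scaling to T cell genes (difference -0.17). Psmc5 ran from 115, 106 and 117 TPM in lymph node to 63.6, 63.5 and 60.2 in blood, and Psmc3, with the narrowest range of the ring, from 189.7, 192 and 192 to 113, 129.7 and 138 in the same sources.

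Psmd3, a scaffold subunit of the lid, measured 87.3, 87.5 and 87.1 TPM in lymph node and 81.2, 81.6 and 77.6 in bone marrow. Blood gave 47.6, 48.2 and 50.4, lung 47.5, 51.3 and 52.2, and liver 40.8, 60.7 and 58.8. Spleen lay between, at 72.1, 62.2 and 73.3, and overlapped none of the others. Psmd3 was the lid gene with the widest range and was 0.78 lower in lung than in lymph node (log2 difference -0.78, limma adjusted p = 5.62e-05), but not past the threshold with scaling to T cell genes (-0.28, adjusted p = 0.0717). Psmd7, another lid subunit, ran from 81.9, 77.1 and 87.0 TPM in bone marrow to 45.7, 46.2 and 48.3 in blood. Psmd6 changed least of the non-ATPase subunits, with a 1.26-fold span between its highest and lowest group means.

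Assembly chaperones build the core and the base and are absent from the finished particle. Of the 7 chaperone genes 5 passed the F test, where 68% of all genes tested did. The median range of the 7 was 1.03, against 0.72 over all members and 1.15 over all genes tested. Psmg1, part of the chaperone pair that scaffolds the alpha ring, held 35.6, 43.4 and 35.2 TPM in spleen and 32.7, 31.97 and 30.9 in lymph node. Bone marrow gave 29.4, 19.1 and 21.4, blood 17.5, 18.1 and 14.9, liver 13.4, 20.5 and 9.54, and lung 8.54, 14.5 and 9.15. Spleen and lymph node lay above the other 4 sources, and liver and lung overlapped at the low end. No step between neighbours in this order passed limma's test. In lung it fell by 1.52 ± 0.24 against lymph node (limma adjusted p = 8.01e-05), and by 1.03 with scaling to T cell genes.

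Psmg1 was also lower in liver than in lymph node (log2 difference -1.15, limma adjusted p = 0.00161). Psmg3, another core chaperone, did not pass the F test: its liver libraries held 33.8, 8.42 and 4.07 TPM, the largest spread of any member in liver. Psmd10, or gankyrin, a chaperone of the base, changed least, from 34.5, 39.6 and 31.2 TPM in spleen to 20.6, 22.3 and 22.7 in liver. Pomp, the maturation factor that helps complete the core and is no member by its name, did not differ between sources (F test, adjusted p = 0.767).

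Beside lymph node, 22 of 48 members were lower in liver and 1 higher, where 21.6% of all genes tested were lower and 9.45% higher. The lower members came from every role: 2 alpha subunits, 3 of the structural and 1 of the constitutive beta subunits, Psmb8, 3 ATPases, 6 non-ATPase subunits, 4 chaperones and 2 of the activators. Psmb4 (log2 difference -0.71, limma adjusted p = 0.000453), Psmd3 (-0.72, adjusted p = 0.000249) and Psmc2 (-0.67, adjusted p = 0.00178) were among them, whereas Psmb9 and Psmb10 were not. With scaling by the median ratio 10 members were lower and 4 higher in liver (12.4% and 13.4% of all genes). With scaling to T cell genes 10 were lower and 3 higher (11.4% and 11.9%). Stress and heat-shock genes moved with this source: all 11 of that list were higher in liver than in lymph node, and their summed level was 11147.9 TPM in liver and 3265.5 in lymph node. Erythroid markers summed to 10931.8 to 11969.4 TPM in liver and to 72.8 to 75.5 in lymph node. Their part in the liver values was not tested.

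Between bone marrow and lymph node fewer members differed in TPM as deposited, with 6 of 48 lower in bone marrow and none higher (8.89% and 13.7% of all genes tested). The 6 included Psmb8 (log2 difference -0.35, limma adjusted p = 8.32e-05), Psmb9, Psme1 (-0.43, adjusted p = 0.00129) and Psme2, all inducible, with Psme2b and Psmc5. At an unadjusted p under 0.05, 2 members were higher. The counts also moved with the fit: on these 2 sources alone 7 members were higher and 13 lower, and with library weights 6 and 14. For these fits too, shares of all genes were not computed. The direction depended on scaling: with libraries scaled to T cell genes, 41 members were higher and none lower, where 46% of all genes were higher and the median of all genes moved by 0.60 to 0.54, Psmb8 being higher by 0.31 and Psme1 by 0.23 (adjusted p = 0.0634).

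**Figure D4:**
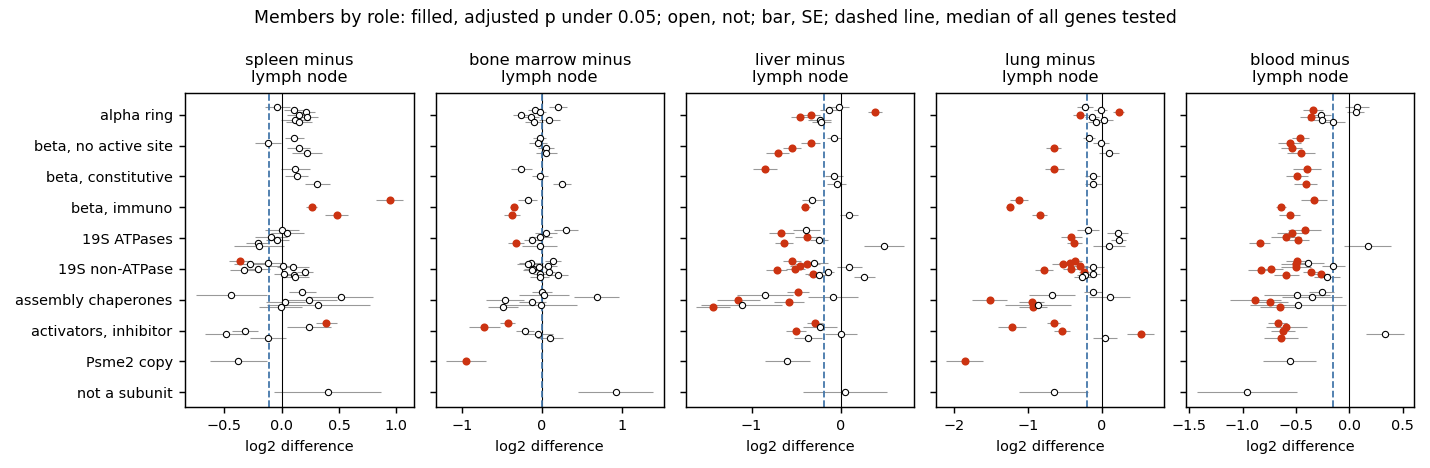
Log2 difference of each member from lymph node in the 5 other sources, by role, with filled points at an adjusted p under 0.05, bars for the SE and a dashed line for the median of all genes tested. Differences are of TPM as deposited. The immunoproteasome genes lie to the right in spleen and to the left in lung, and nearly all members lie to the left in blood. Under the other scalings, which are not drawn, the immunoproteasome genes kept these sides in spleen and lung. The left shift in blood turned to the right with scaling to T cell genes.

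Against peripheral blood, most members were lower in blood as deposited. In blood 37 of 48 were lower than in spleen and 1 higher (15.3% and 20.1% of all genes tested), 32 were lower than in lymph node and none higher (21% and 16.4%), and 25 were lower than in bone marrow and none higher (18.8% and 13%). The median log2 difference of the members was -0.515 against spleen, -0.484 against lymph node and -0.384 against bone marrow, beside medians of 0, -0.152 and -0.106 over all genes. At an unadjusted p under 0.05 the count of higher members was 0 against lymph node and 0 against bone marrow as well. With scaling by the median ratio, 13 were lower and 3 higher than in lymph node (11.4% and 20.8% of all genes). With scaling to T cell genes the direction turned: 28 members were higher and 1 lower against spleen, 38 higher and none lower against lymph node, and 7 higher and 2 lower against bone marrow, where 53.7%, 55.8% and 28.1% of all genes were higher. That scaling shifted the median of all genes by 0.81, 1 and 0.41 in these comparisons. Platelet markers summed to 2208.8 to 2244.1 TPM in blood and to at most 82.8 in any other library, in addition to the myeloid RNA given above, and their part was not tested.

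Named members depended on scaling to different degrees. Psmb8 was lower in blood than in spleen (log2 difference -0.90, limma adjusted p = 1.24e-09), but not past the threshold with scaling to T cell genes (-0.03, adjusted p = 0.749). Psmb10 was lower with either (-1.27, adjusted p = 6.23e-07, and -0.39, adjusted p = 0.0106). The member higher in blood than in spleen was Psme4, by 0.81 (adjusted p = 0.00201), and by 1.66 with scaling to T cell genes (adjusted p = 1.05e-06).

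As deposited, liver and lung lay nearer to blood, with median log2 differences of the members of -0.118 and -0.124. With scaling to T cell genes, blood was instead nearest to bone marrow (0.05) and farthest from liver (0.78). By that median it was 0.36 above spleen, 0.46 above lung and 0.6 above lymph node. Against liver, 11 members were lower in blood and 3 higher (16.1% and 23.3% of all genes tested); the 3, named after their values were seen, were Psmb5 (0.44, limma adjusted p = 0.0118), the lid subunit Psmd13 (0.31, adjusted p = 0.0376) and the chaperone Psmg4 (0.78, adjusted p = 0.004). The Psmb5 call was lost without liver replicate 2 (0.28, adjusted p = 0.0556) and in a fit on the 2 sources alone (adjusted p = 0.134). That of Psmd13 was lost in that fit, with no filter, without abundant RNA classes, with library weights and without the trend and robust settings (adjusted p from 0.0568 to 0.183), and without liver replicate 1 (0.17, adjusted p = 0.175), blood replicate 1 (0.26, adjusted p = 0.138) or blood replicate 3 (0.31, adjusted p = 0.0818). With scaling to T cell genes, 45 members were higher in blood than in liver and none lower, where 61% of all genes were higher. Against lung, 13 members were lower and 7 higher (17.3% and 26.4%). All 3 immunoproteasome genes were among the 7, with Psmb10 higher by 0.79 (adjusted p = 7.49e-05) and Psmb8 by 0.60 (adjusted p = 1.15e-07), as was Psme2, by 0.62 (adjusted p = 0.0143). The Psme2 call was lost without blood replicate 2 (0.48, adjusted p = 0.0768) or lung replicate 2 (0.55, adjusted p = 0.0545), and 4 members were higher without lung replicate 1, blood replicate 1 or blood replicate 2. When scaled to T cell genes, 33 members were higher in blood than in lung and none lower, where 50% of all genes were higher.

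The pathway that surrounds the immunoproteasome was read from lists of its genes. Of 12 genes of MHC class I peptide loading, 6 were lower and 2 higher in lung than in lymph node (27.4% and 14.9% of all genes tested). With scaling to T cell genes 4 were lower and 6 higher (11.5% and 26.4% of all genes). Tap1, which shares its upstream region with Psmb9, held 282, 281 and 272 TPM in lymph node and 132, 166 and 145 in lung (log2 difference -0.92, limma adjusted p = 5.55e-08). Its partner Tap2 held 216, 219.97 and 212 TPM and 68.6, 87.0 and 84.4 (-1.43, adjusted p = 1.11e-09). Both chains of the transporter were lowest in lung, as the immunoproteasome subunits were. Nlrc5, the transactivator of MHC class I genes, was lower in lung as well (-1.04, adjusted p = 3.45e-08). Unlike Psmb9, Tap1 was not separated between spleen, at 272, 284 and 242 TPM, and lymph node (difference -0.07, adjusted p = 0.662).

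Of 11 interferon receptor and signalling genes, 6 were higher and 3 lower in lung than in lymph node (14.9% and 27.4% of all genes tested). Scaled to T cell genes, 8 were higher and 1 lower (26.4% and 11.5%). The receptor chain Ifngr1 and its kinase Jak2 were among the higher ones. Ifngr1 held 1732, 1756 and 1721 TPM in lung and 130.1, 134 and 131 in lymph node (log2 difference 3.71, limma adjusted p = 3.04e-17), and Jak2 411, 387 and 335 against 65.5, 65.1 and 65.6 (2.5, adjusted p = 1.1e-12). Irf1, whose product binds the ISRE, was higher in lung by 0.77 (adjusted p = 1.83e-06). Lung Treg libraries thus held high Ifngr1 and Irf1 levels beside low Nlrc5, Tap1, Tap2 and immunoproteasome levels, in each case under all 3 other scalings as well. Other genes of the 2 lists went the other way by group mean. B2m (4289 TPM in lung, 3746 in lymph node) and H2-D1 (2777 and 2421) were higher in lung. Irf2 (42.44 and 103.8) and Stat2 (33.31 and 59.02) were lower there.

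Among 26 partners of the proteasome that were tested, 8 were higher and 8 lower in lung than in lymph node (14.9% and 27.4% of all genes tested). After scaling to T cell genes 14 were higher and 4 lower (26.4% and 11.5%). Nfe2l1, which drives constitutive subunit genes when degradation is impaired, held 52.1, 48.6 and 52.7 TPM in lymph node and 26.7, 29.3 and 31.98 in lung (log2 difference -0.78, limma adjusted p = 2.12e-05). Its relative Nfe2l2, the regulator of antioxidant genes, was higher in lung by 1.59 (adjusted p = 5.22e-10) and highest in blood, at 101, 91.7 and 90.7 TPM.

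**Figure D5:**
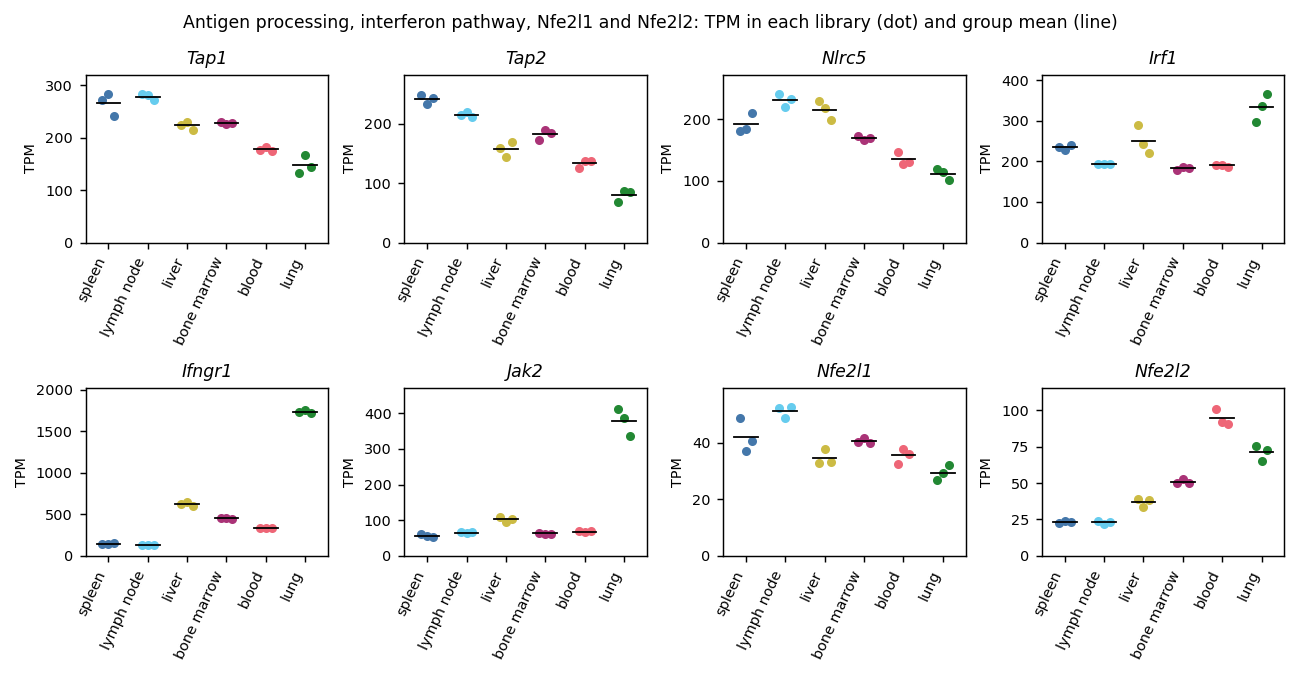
TPM of the peptide transporter genes Tap1 and Tap2, of Nlrc5, Irf1, Ifngr1 and Jak2, and of Nfe2l1 and Nfe2l2 in each library (dots), with the group mean as a line. In lung Ifngr1 lies between 1721 and 1756 TPM, above every other library, and Tap2 between 68.6 and 87.0, below every other library.

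The threshold of 1 TPM fell in a wide gap. In addition to shared copies, 24 members overlap another annotated gene, 19 of them on the opposite strand, and whether strand was used in counting is not given in the sources used here. Just inside was Psmc3ip, with a mean of 5.314 TPM, which carries the name but encodes a meiotic recombination factor and no subunit. Its bone marrow libraries held 8.5, 11.3 and 9.27 TPM and its blood libraries 2.03, 2.04 and 1.63. Just outside was Psma8, the alpha subunit of the testis, with a mean of 0.664 TPM, at 5.48 in liver replicate 3 and at most 1.89 in the libraries of bone marrow and blood. Psmb11, the thymus-specific catalytic subunit, had a mean of 0.001 TPM.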

How the data were processed

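RNA-seq libraries of Treg cells from 6 sources, 3 per source, were analysed from the deposited tables. The authors deposited 1 TPM table per library for 55487 Ensembl gene IDs, and STAR, RSEM and the build mm10 are named in the submitters' processing notes, without versions or settings. Library totals were 999999.27 to 1000000.62 TPM, so read depth cannot be read from them and no counting interval is given. Symbols came from GENCODE M21 (55141 IDs matched, 346 did not). Value columns that could not be mapped to a sample numbered 0.

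Here TPM was analysed as log2(TPM + 1), which understates differences of low genes, with limma 3.58.1 in R 4.3.3. The design had provided for counts or TPM. A gene was tested if its mean reached 1 TPM in any source, which 16694 did. All 18 libraries entered 1 model with a mean per source and moderated variances (trend and robust). P-values were adjusted by Benjamini-Hochberg over all genes of a contrast and called at an adjusted p under 0.05. The script was tested on simulated data.

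Members and lists were chosen with earlier results of these data known. Named genes were the catalytic, PA28 and other cap genes, Psmc3ip, Pomp, Tap1, Tap2, Nlrc5, Irf1 and Nfe2l1, and 1 gene of the rule is not reported here. Added to them were, in each other role, the 2 with the widest and the 1 with the narrowest range of group means, and in each pathway list the 3 with the widest. Others are named where a small count or a shared copy called for it. Alternatives were other pseudocounts, filters, variance settings and scalings of the libraries, library weights, fits on the sources compared, a replicate term, and leaving out single libraries.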

Additional observations from a re-analysis of the deposited data

Results flagged for a closer look

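The log2 ratio of Psmb9 to its constitutive partner Psmb6 took opposite signs between sources. It was negative in every bone marrow library (mean -0.24, n = 3) and in every lung library (mean -0.61, n = 3). It was positive in every spleen library (mean 0.47, n = 3) and in every liver library (mean 0.29, n = 3). The difference between these sources was not tested, because the ratio was named when the genes were chosen.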

How the results depend on the processing

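Counts of members moved with scaling and with the fit. With libraries scaled to T cell genes, the counts higher and lower were 41 and 0 in bone marrow, 12 and 0 in spleen, 3 and 10 in liver and 19 and 6 in lung against lymph node. In blood they were then 7 and 2 against bone marrow, 28 and 1 against spleen, 38 and 0 against lymph node, 45 and 0 against liver and 33 and 0 against lung. Psmb8 (0.31) and Psme1 (0.23) reversed between bone marrow and lymph node under this scaling. Scaling by the median ratio gave 12 and 0 in spleen, 4 and 10 in liver and 6 and 12 in lung against lymph node. In blood it gave 3 and 13 against lymph node and 2 higher against bone marrow (17.8% of all genes). Leaving out abundant RNA classes gave 7 and 0 in spleen and 10 lower in bone marrow (11.8% of all genes). For blood against lung it gave 4 higher (23.3%).

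Fits on the 2 sources compared gave 7 and 13 in bone marrow, 8 and 5 in spleen and 1 higher in lung against lymph node, and for blood 2 higher against bone marrow, 2 higher against lymph node, and 1 and 7 against liver. Library weights gave 6 and 14 in bone marrow, 9 and 6 in spleen and 1 higher in lung, and for blood 2 higher against bone marrow and 1 higher against lymph node. With no filter, or without the trend and robust settings, 1 member was higher in lung. Shares of all genes called were not computed for these fits or with single libraries left out. These counts are therefore not read as particular to the members. Without blood and bone marrow libraries, an alternative chosen after seeing the data, 27 members passed the F test (48.1% of 15680 genes), none were higher in lung and none lower in spleen than in lymph node (0 in each case). The mean of the 3 pairwise log2 ratios was 1.53 in spleen, 1.15 in lymph node, 1.08 in blood, 0.86 in bone marrow and 0.37 in lung. The cause of these shifts was not tested.

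Leaving out each library in turn gave 38 to 44 members by the F test. Lower counts in blood were then 29 to 38 against spleen, 27 to 35 against lymph node, 20 to 28 against bone marrow, 8 to 14 against liver and 9 to 14 against lung. Higher counts were 4 to 8 against lung, 2 to 4 against liver, 1 to 1 against spleen and 0 to 0 against the others. Against lymph node, 17 to 25 were lower and 0 to 3 higher in lung, 17 to 25 lower and 1 to 2 higher in liver, 5 to 7 lower and 0 to 1 higher in bone marrow, and 4 to 5 higher and 0 to 3 lower in spleen. The summed log2 ratio was 1.64 to 1.71 in spleen, 1.25 to 1.46 in liver, 1.36 to 1.39 in lymph node, 1.24 to 1.28 in blood, 1.07 to 1.09 in bone marrow and 0.47 to 0.6 in lung. Deviations from the group mean were nearly uncorrelated between same-numbered libraries (r from -0.034 to 0.03 over 45 pairs of sources and numbers, 0 over 0.1). For 8 of the 18 libraries, the closest library of another source had the same number. Such values cannot exclude that same-numbered libraries were paired. A replicate block gave 41 members by the F test. Depth is unknown from TPM. All sources shared 1 variance per gene, so the wider replicate spread in liver and lung is not reflected in the errors of their own contrasts.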
